A study of Drosophila melanogaster with 3 samples.

Results

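The genes for the protein subunits of the mitochondrial ribosome were followed in anti-GFP chromatin immunoprecipitation with sequencing (ChIP-seq) of whole Drosophila prepupae. They were taken as the protein-coding genes whose symbol starts with mRpL (large subunit) or mRpS (small subunit), which gave 73 of 13968 protein-coding genes on the 7 major arms, 47 mRpL and 26 mRpS. The animals were of the CG9139-GFP strain, whose fusion protein is also labelled CG9139-eGFP, a transgenic line with GFP at the C-terminus of CG9139 (Rabex-5, which activates the early endosomal GTPase Rab5), collected as prepupae labelled 24 hour with both sexes pooled. All 3 biological replicates belong to this 1 group, so no group was compared with another, and values describe a whole organism in which cell types cannot be told apart. No library without the tag was analysed here, so regions that would be recovered without the tagged protein are not marked as such. The files hold the replicate lists of 30000 candidate regions each, a list of 30000 candidates from the pooled reads, and 4934 regions of that list that passed the irreproducible discovery rate (IDR), called IDR peaks below. The signal of a region is the authors' enrichment value over a control alignment, and a rank of 1 is the highest signal of a list. Depth is unknown because the lists hold no read counts.

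Mitochondria keep a small genome that encodes a few subunits of the respiratory chain, and these are translated by ribosomes of their own. The RNAs of that ribosome come from the mitochondrial genome, while its proteins are encoded in the nucleus, made in the cytosol and imported. Many fly genes of this kind are short, and many are divergent, which means that another gene starts close by on the opposite strand and is transcribed the other way. A peak between such a pair of starts lies at both promoters, so each summit was also assigned to the gene whose transcription start site (TSS) was nearest.

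The sequences below show what lay under the IDR peaks of 5 of these genes and before the starts of 3 genes without an IDR peak. The first set are the 151 bases centred on the summit, in the direction of the mitochondrial gene, for the peaks whose window holds no annotated exon, and capitals mark any of the 8 short promoter words listed further on. Windows of the Release 6 genome are chr2L:13835386-13835536 (minus strand) for mRpS23, chr3R:15229456-15229606 (plus) for mRpS10, chr3L:11120437-11120587 (plus) for mRpL2, chr2L:4945397-4945547 (minus) for mRpL24 and chr3L:13018036-13018186 (minus) for mRpL20. Among these windows, only that of mRpL2 held any of the words, and A and T made up 63.4% to 79.2% of the central 101 bases.
mRpS23: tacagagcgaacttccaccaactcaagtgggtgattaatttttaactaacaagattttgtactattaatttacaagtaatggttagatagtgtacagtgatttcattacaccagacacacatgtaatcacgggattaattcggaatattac
mRpS10: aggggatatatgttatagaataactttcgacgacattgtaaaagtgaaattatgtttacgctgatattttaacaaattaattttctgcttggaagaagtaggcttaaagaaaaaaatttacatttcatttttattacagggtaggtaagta
mRpL2: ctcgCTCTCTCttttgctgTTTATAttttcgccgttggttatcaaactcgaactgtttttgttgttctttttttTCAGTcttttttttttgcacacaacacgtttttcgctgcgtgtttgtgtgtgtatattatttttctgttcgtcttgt
mRpL24: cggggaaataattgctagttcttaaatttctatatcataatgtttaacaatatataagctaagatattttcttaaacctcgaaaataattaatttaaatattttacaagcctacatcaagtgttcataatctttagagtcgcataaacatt
mRpL20: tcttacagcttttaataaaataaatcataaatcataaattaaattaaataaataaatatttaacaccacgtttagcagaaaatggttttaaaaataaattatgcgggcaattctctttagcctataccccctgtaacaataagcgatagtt

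The second set are the 75 bases before the start of 3 divergent genes that had no IDR summit within 500 bp, shown because each holds the DNA replication-related element (DRE, the word TATCGATA, in capitals), the binding word of the factor DREF. They lie at chr3L:14999667-14999741 (minus strand) for mRpL39, chrX:1890181-1890255 (plus) for mRpL16 and chr3R:31252797-31252871 (plus) for mRpL32. The word began 32 bases before the start of mRpL39, 32 before that of mRpL16 and 27 before that of mRpL32. It is not particular to genes without an IDR summit. Copies also began 10 bases before mRpL20 and 9 before mRpS23, which both had one.
mRpL39: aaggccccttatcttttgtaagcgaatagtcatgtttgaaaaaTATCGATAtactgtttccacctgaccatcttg
mRpL16: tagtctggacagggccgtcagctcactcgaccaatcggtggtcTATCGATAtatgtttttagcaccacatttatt
mRpL32: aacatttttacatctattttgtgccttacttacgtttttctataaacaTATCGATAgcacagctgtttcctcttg

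Of the 73 genes, 9 (12.3%) had a TSS at most 500 bp from an IDR summit, against 13.1% of all protein-coding genes. The exact (Clopper-Pearson) 95% interval of the members' share ran from 5.8% to 22.1%. The interval covers counting error over genes only, which is how all such intervals here are meant. The genes with an IDR summit were mRpL2, mRpL20, mRpL23, mRpL24, mRpL33 and mRpL41 of the large subunit, 6 of 47, and mRpS10, mRpS21 and mRpS23 of the small subunit, 3 of 26. A pooled candidate of any strength lay as close to 16 members (21.9%, interval 13.1% to 33.1%), against 32.5% of all genes. By arm, 2 of 12 members on 2L had an IDR summit (12.8% of all genes there), 1 of 12 on 2R (12%), 3 of 17 on 3L (14.5%), 2 of 21 on 3R (12.6%) and 1 of 11 on X (14.3%).

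Single replicates were read through their strongest candidates, as many per replicate as there were IDR peaks. Such a summit lay within 500 bp of 12 members (16.4%) in replicate 1, against 14.2% of all genes. In replicate 2 it was again 12 members (16.4%), against 14.6% of all genes. Replicate 3 had 7 members (9.59%), against 13% of all genes. The members' share was thus above that of all genes in replicates 1 and 2 and below it in replicate 3. The mean share was 14.2% ± 3.95 of the members and 13.97% ± 0.820 of all genes (SD, n = 3), so the 2 means differed by less than the spread between replicates. With all candidates of a replicate, the members' share was 37% in replicate 1, 53.4% in replicate 2 and 17.8% in replicate 3. The same shares of all genes were 37%, 41.9% and 34.4%. The members' mean of 36.1% ± 17.8 was thus close to the 37.7% ± 3.82 of all genes (SD, n = 3), and the SD over replicates was larger for the members.

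**Figure D1:**
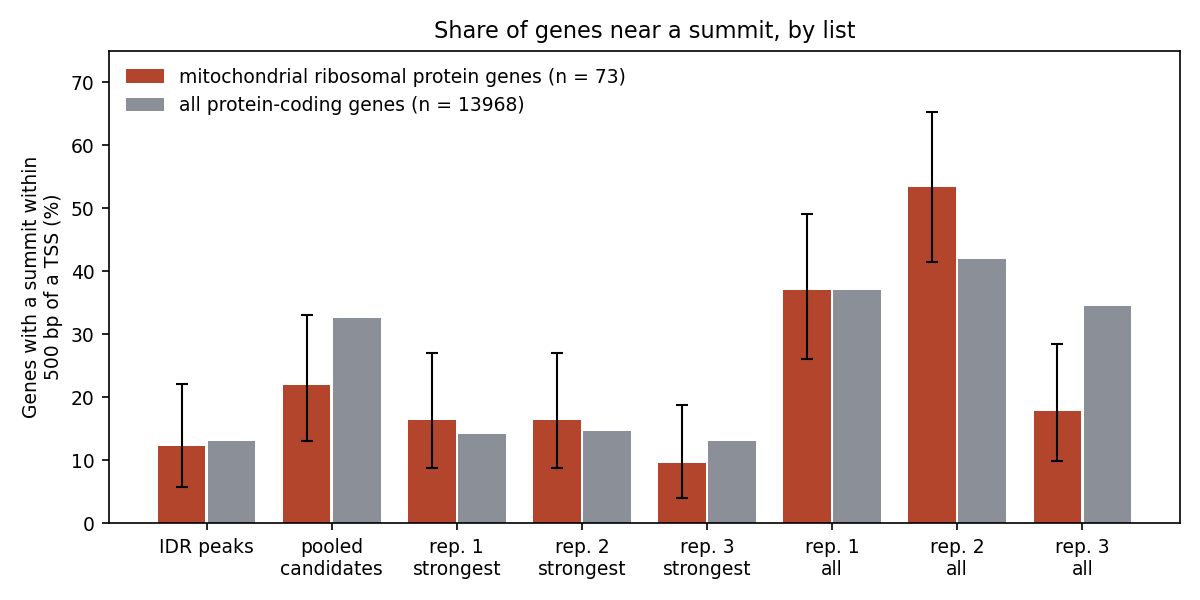
Percent of genes with a summit within 500 bp of a TSS (vertical axis) in each list, with the mitochondrial ribosomal protein genes in red at the left of each pair and all protein-coding genes in grey at the right. Error bars are exact 95% binomial intervals of the members' share, and the pairs are close in the IDR list (12.3% and 13.1%) but far apart in all candidates of replicate 3 (17.8% and 34.4%).

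Most members are annotated as one gene of a divergent pair. A divergent partner, here an opposite-strand protein-coding gene with a TSS at most 1000 bp upstream, or overlapping the start by at most 100 bp, was annotated for 58 of 73 members (79.5%), against 36.3% of all genes. The gap between the paired starts had a median of 283 bp and ran from 20 to 793 bp. All 9 members with an IDR summit had such a partner, which is 9 of 58 divergent members (15.5%), against 16.8% of all divergent genes. None of the other 15 members had an IDR summit (0%, interval up to 21.8%), against 11% of all genes without a partner. Those 15 genes are mRpL9, mRpL10, mRpL12, mRpL13, mRpL14, mRpL19, mRpL36, mRpL40, mRpL45, mRpL49, mRpS5, mRpS9, mRpS33, mRpS34 and mRpS35. The median gap was 297 bp at the 9 members with an IDR summit and 281 bp at the 49 divergent members without one. Members also have few starts: 67 of 73 (91.8%) have a single annotated TSS, against 73.5% of all genes, and among single-start genes 7 of 67 members (10.4%) had an IDR summit, against 7.75% of all genes. The median gene length was 909 bp for members and 2164.5 bp for all genes.

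At most of these peaks the mitochondrial gene was not the closest one. Only mRpL23 and mRpL41 had their own TSS nearest to an IDR summit, 2 of 73 members (2.74%), against 11.2% of all genes. Of the genes with an IDR summit, the own TSS was nearest for 2 of 9 members and for 85.1% of all 1834. Restricted to the 851 genes with both an IDR summit and a divergent partner, it was nearest for 581, or 68.3%. At the remaining 7 members the nearest TSS was that of the divergent partner. The margin was small at mRpL24 (111 bp to its own start, 107 bp to betaggt-I) and mRpS10 (134 bp, and 123 bp to Art3). Summits of the overlapping candidates in replicates 1, 2 and 3 lay 2, 19 and 10 bp from the IDR summit at mRpL24. At mRpS10 they lay 11, 9 and 10 bp away, and at mRpL20 (244 and 155 bp) 60, 45 and 43 bp. The nearest start is therefore uncertain at these genes. All 9 summits lay upstream of the member TSS closest to them, at a median of 244 bp, while the nearest TSS of any gene was at a median of 103 bp. Of the 9 summits, 5 lay between the member's start and the closest start of its partner (mRpL20, mRpL24, mRpL41, mRpS10 and mRpS23). The same placement is not given here for all genes with an IDR summit and a partner, so it is not read as particular to the members.

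**Figure D2:**
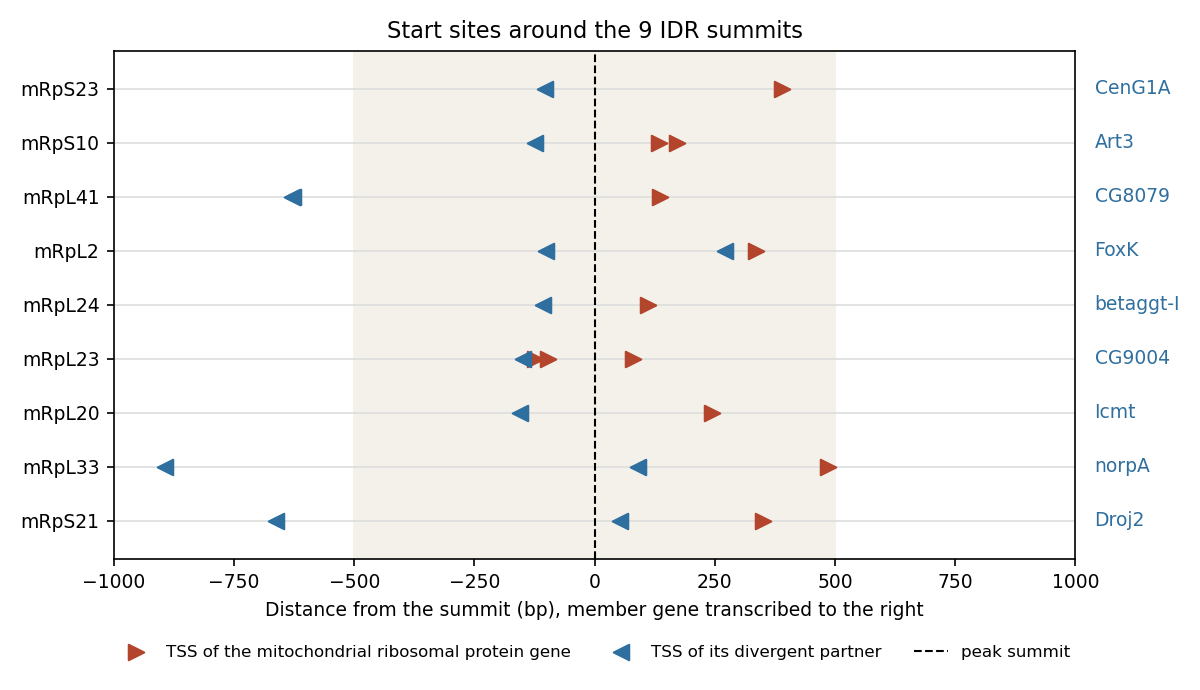
Annotated start sites around the 9 IDR summits, ordered by signal from the top, as distance from the summit in bp with the mitochondrial gene transcribed to the right (red triangles) and its divergent partner to the left (blue triangles, named at the right edge). The shaded band is 500 bp to each side, and the partner's start is the nearer one in 7 of 9 rows, mRpL23 and mRpL41 being the exceptions. The margin is small at mRpL24 (107 against 111 bp) and mRpS10 (123 against 134 bp). Partner starts over 1000 bp away are not drawn.

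The 3 strongest of the 9 peaks belonged to mRpS23, mRpS10 and mRpL41. To compare replicates, each replicate's signal was divided by its median over the IDR peaks, giving a relative signal. The relative signal still depends on how widely signals spread within a replicate. mRpS23 encodes a small-subunit protein found in mitochondrial but not in bacterial ribosomes. Its peak (chr2L:13835304-13835627, intergenic) had a signal of 1257.1 and rank 25 in the pooled list, and ranks 27, 40 and 18 in replicates 1, 2 and 3. The relative signal was 7.18, 5.52 and 7.2, a mean of 6.64 ± 0.964 (SD, n = 3). The summit was 389 bp upstream of mRpS23 and 103 bp from a start of CenG1A, a GTPase-activating protein for Arf GTPases. The starts of that pair are 492 bp apart.

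mRpS10 is the mitochondrial counterpart of a protein of the small-subunit head. Its peak (chr3R:15229375-15229686, intergenic) had a signal of 1162.2 and pooled rank 33, with replicate ranks 17, 63 and 81. Relative signals were 8.75, 4.68 and 4.39, a mean of 5.94 ± 2.44 (SD, n = 3), replicate 1 being well above the other 2. The summit lay nearly midway between both starts, 134 bp from mRpS10 and 123 bp from Art3, an arginine methyltransferase. For mRpL41, a large-subunit protein specific to mitochondrial ribosomes, the peak (chr2R:15217596-15217901, intergenic) had a signal of 1094.5 and pooled rank 36, with replicate ranks 14, 108 and 152. Relative signals were 8.99, 3.82 and 3.56, a mean of 5.46 ± 3.06 (SD, n = 3), again with replicate 1 highest. No other protein-coding TSS was within 500 bp: mRpL41 started 135 bp from the summit and its partner CG8079 at 627 bp. Any 2 of these 3 means differed by less than the larger of their SDs.

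A middle group of 3 large-subunit genes followed. mRpL2, mRpL24 and mRpL23 are counterparts of bacterial proteins placed near the peptidyl transferase centre in the first case and near the exit of the nascent chain in the other 2. The mRpL2 peak (chr3L:11120367-11120628) had a signal of 507 and pooled rank 312, with replicate ranks 284, 285 and 355. Its relative signals of 3.02, 2.69 and 2.52 gave a mean of 2.74 ± 0.254 (SD, n = 3). This summit lay within an intron of FoxK, which encodes a forkhead transcription factor, 101 bp from one of its 4 annotated starts and 335 bp upstream of mRpL2. The closest FoxK start was 64 bp from that of mRpL2, so the summit was outside the interval between that pair.

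The mRpL24 peak (chr2L:4945367-4945602, intergenic) had a signal of 498.6 and pooled rank 330, with replicate ranks 205, 553 and 601. Relative signals were 3.49, 2.04 and 1.99, a mean of 2.51 ± 0.854 (SD, n = 3). Both starts were about equally far, mRpL24 at 111 bp and betaggt-I at 107 bp. betaggt-I encodes the beta subunit of an enzyme that prenylates small GTPases. The mRpL23 peak (chr3L:2373478-2373725) had a signal of 459.6 and pooled rank 383, with replicate ranks 222, 508 and 949. Relative signals were 3.37, 2.12 and 1.6, a mean of 2.36 ± 0.908 (SD, n = 3). mRpL23 has 3 annotated starts, and this summit lay in an intron behind the 2 outer ones, 79 bp upstream of the innermost start. Its partner CG9004 begins 24 bp from the closest mRpL23 start and 148 bp from the summit. In all 3 replicates these 3 peaks were above the median IDR peak, and any 2 of their means differed by less than the larger SD.

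The remaining 3 peaks ranked below the first 1000 of the pooled list. That of mRpL20, whose bacterial counterpart takes part in early assembly of the large subunit, was at chr3L:13017896-13018325 (intergenic) with a signal of 247.8 and pooled rank 1338. Its replicate ranks were 1577, 1637 and 1349, and relative signals of 1.3, 1.23 and 1.34 (mean 1.29 ± 0.0563, SD, n = 3) varied little. The summit was 244 bp from mRpL20 and 155 bp from Icmt, the carboxyl methyltransferase of prenylated proteins. mRpL33 had a peak at chrX:4322501-4322930 with a signal of 174.2 and pooled rank 2351. Its replicate ranks were 4429, 2644 and 2133, and its relative signals 0.665, 0.949 and 1.05 (mean 0.889 ± 0.201, SD, n = 3). The summit was in the 5' UTR of norpA, the phospholipase C of phototransduction, 90 bp from a norpA start and 485 bp from mRpL33, just inside the distance used. The overlapping candidate of replicate 3 had its summit 147 bp away, and in that replicate no summit was within 500 bp of mRpL33.

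mRpS21 had the weakest peak, at chr3R:13381944-13382373, with a signal of 114.8 and pooled rank 4351. Its candidate ranked 2486 in replicate 1 and 7680 in replicate 2, with relative signals of 0.973 and 0.492 (mean 0.733 ± 0.34, SD, n = 2), and replicate 3 had no overlapping candidate. The summit was in transcribed sequence of Droj2, a DnaJ-type chaperone, 53 bp from one of its 4 starts and 350 bp from mRpS21. Across the 9 peaks, 6 were in the top 500 of the pooled list, against 12.3% of the 1860 IDR summits within 500 bp of any protein-coding TSS. The median rank was 330 for the members' peaks and 2423.5 for those 1860. The peaks of mRpL20, mRpL33 and mRpS21 had the default width of 430 bp, at which the given summit is the midpoint of the region, and the other 6 were narrower. Of the 1860 summits, 73.9% were in default-width regions.

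**Figure D3:**
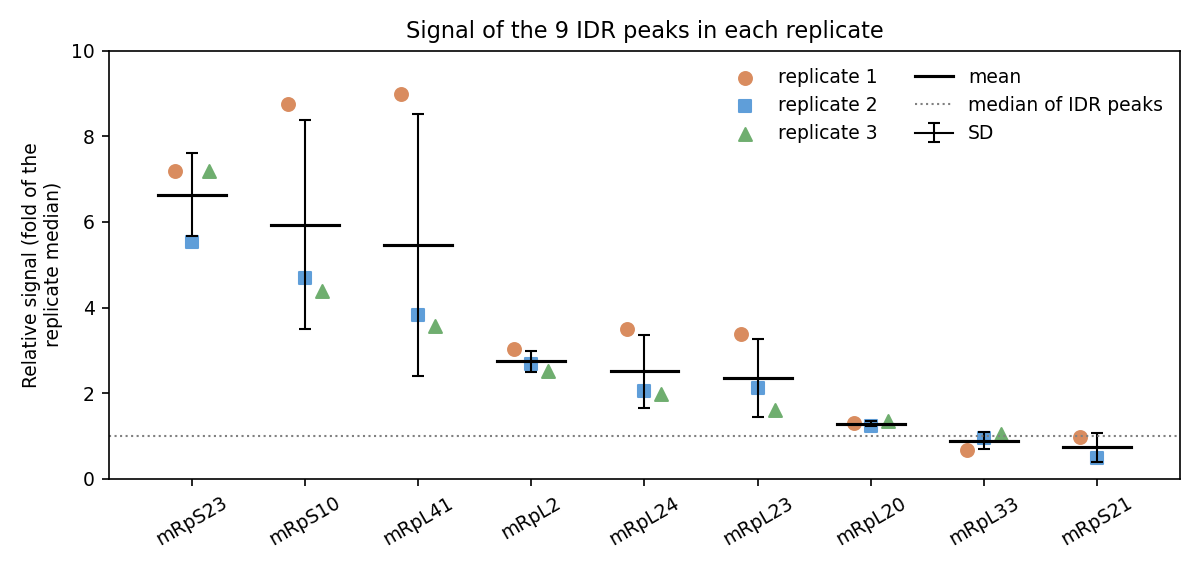
Relative signal (vertical axis, fold of each replicate's median over IDR peaks) of the 9 IDR peaks in replicate 1 (circles), 2 (squares) and 3 (triangles), ordered by pooled rank. Horizontal bars are means and error bars SD over 3 replicates (2 for mRpS21); the means run from 6.64 at mRpS23 to 0.733 at mRpS21, and the dotted line at 1 is the median IDR peak.

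Another 7 members had only pooled candidates that did not pass the IDR, with 8 summits at ranks from 7930 to 29791. The nearest TSS was another gene's for 6 of the 8 summits. The same share over all genes with only such candidates is not given here. The candidate by mRpL34 had a signal of 73.4 and rank 7930, and lay 410 bp upstream of mRpL34 and 26 bp from a start of Dg, which encodes dystroglycan. At mRpL11 the signal was 55 and the nearest start, 8 bp away, was that of HtrA2, a protease of the mitochondrial intermembrane space. mRpL39 had 2 candidates, one with a signal of 54 whose summit was 6 bp downstream of its own start, and one with a signal of 28.9 nearer to Prosbeta2, a proteasome subunit gene. Both overlapped the same replicate candidates. mRpL32 had a signal of 48, 110 bp from qless, which acts in the synthesis of the ubiquinone side chain. mRpS5 had a signal of 33.2 in its own intron, 422 bp downstream of a start, and is the only one of the 7 without a partner. Its closest IDR summit was 1441760 bp away. The candidate at mRpS18A had a signal of 26.3 and rank 29791, nearest to CG31460. That at mRpS31 had a signal of 34.6 and was nearest to hzg.

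Near the limit of 500 bp the closest members inside were mRpL33 at 485 bp and mRpS23 at 389 bp. The closest outside was mRpS31, with an IDR summit at 552 bp (signal 260.2, rank 1227) in the 5' UTR of hzg and 95 bp from the hzg start. Each of the 3 replicates had one of its strongest candidates there, and these also overlap the weak mRpS31 candidate given above, their summits 173 to 205 bp from its own. mRpL54 followed at 727 bp, with a summit (signal 115.9, rank 4286) in its own 3' UTR and 130 bp from Cht8, a chitinase-family gene. mRpL34 was at 1228 bp, by a summit in an intron of Dg. Within 1000 bp there were 11 members (15.1%), against 16% of all genes, and within 10000 bp 40 members (54.8%), against 47.9%. The one other IDR summit inside a member gene was in an intron of mRpS9 (rank 4572), 10150 bp from its start, where the gene wtrw also has an intron.

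Some members had strong candidates in single replicates that found no counterpart in the pooled list. At mRpS2, summits 147 and 132 bp upstream of its start ranked 1244 in replicate 1 and 2984 in replicate 2, with signals of 117 and 44.6, between mRpS2 and Mon1, part of the exchange factor for Rab7. Replicate 3 had no candidate within 500 bp of mRpS2, and no pooled candidate overlapped those of the other 2. In replicate 1 alone the strongest candidates also included mRpS7 (rank 3192, 136 bp from Cdk1, the mitotic kinase) and mRpS6 (rank 4197, 28 bp from Cip4, an F-BAR protein). In replicate 2 alone they included mRpL47 (rank 3694, 100 bp from starts of CG8176 and of the histone demethylase gene Kdm3), mRpL43 (rank 3695, 37 bp from CG30183) and mRpS26 (rank 4167, 149 bp from CG13698). Of the 73 members, 7 were among the strongest candidates in all 3 replicates (mRpL2, mRpL20, mRpL23, mRpL24, mRpL41, mRpS10 and mRpS23), 2 in 2 replicates (mRpL33 and mRpS2), 6 in 1 and 58 in none. Of all genes, 14.2%, 14.6% and 13% were among them in replicates 1, 2 and 3. Their split by number of replicates is not given here, so that of the members has no reference.

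**Figure D4:**
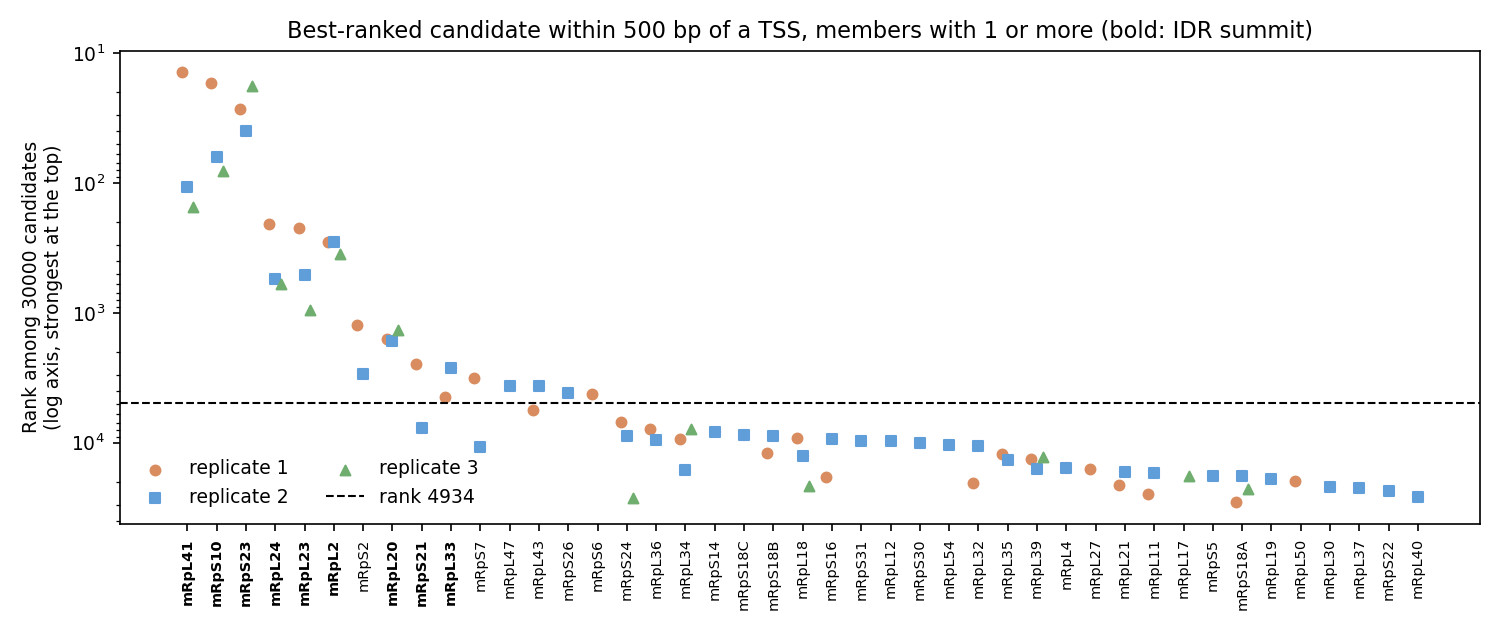
Rank of the best candidate within 500 bp of a TSS (log axis, strongest at the top) in replicates 1 (circles), 2 (squares) and 3 (triangles) for the 43 members with at least 1 candidate, those with an IDR summit in bold. The dashed line is rank 4934: 7 members are above it in all 3 replicates, and 15 members have a candidate in replicate 2 only.

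Counting candidates of any rank, 12 members had one in all 3 replicates, 12 in 2, 19 in 1 and 30 in none. Besides the 7 above, mRpL18, mRpL34, mRpL39, mRpS18A and mRpS24 had one in each replicate, at ranks from 6945 to 28803. Replicates 1 and 2 together held mRpL11, mRpL21, mRpL32, mRpL33, mRpL35, mRpL36, mRpL43, mRpS2, mRpS7, mRpS16, mRpS18B and mRpS21. Replicate 2 alone held 15: mRpL4, mRpL12, mRpL19, mRpL30, mRpL37, mRpL40, mRpL47, mRpL54, mRpS5, mRpS14, mRpS18C, mRpS22, mRpS26, mRpS30 and mRpS31. Replicate 1 alone held mRpL27, mRpL50 and mRpS6, and replicate 3 alone held mRpL17. No candidate was within 500 bp in any replicate for mRpL1, mRpL3, mRpL9, mRpL10, mRpL13, mRpL14, mRpL15, mRpL16, mRpL22, mRpL28, mRpL38, mRpL42, mRpL44, mRpL45, mRpL46, mRpL48, mRpL49, mRpL51, mRpL52, mRpL53, mRpL55, mRpS9, mRpS11, mRpS17, mRpS25, mRpS28, mRpS29, mRpS33, mRpS34 and mRpS35. Absence from a list does not show that signal was absent, and the lowest listed signals were 13.5, 8.75 and 11.5 in replicates 1, 2 and 3. The split by number of replicates is not given here for all genes, so it is not read as particular to the members.

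The 49 divergent members without an IDR summit were paired with genes of varied function. The tightest pairs were mRpL18 with Taz, a tafazzin that remodels the mitochondrial lipid cardiolipin, at 20 bp and mRpS14 with Naa15-16, a subunit of an N-terminal acetyltransferase, at 21 bp. Partners that also act in mitochondria included Mitofilin, which shapes the cristae (mRpL35, 192 bp), ATPsynD of ATP synthase (mRpL55, 95 bp) and HtrA2 (mRpL11, 126 bp). AGO1 of the microRNA pathway was paired with mRpL53 (170 bp). Nuclear factors among the partners included the chromatin remodelling subunit Snr1 (mRpL44, 290 bp), the histone methyltransferase trr (mRpL16, 306 bp) and Nop60B, which modifies ribosomal RNA (mRpS17, 436 bp). The widest gap, 793 bp, was between mRpL4 and CG4440.

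Other genes of mitochondrial gene expression were counted the same way, beside the 13.1% of all genes. Neither of the 2 mitochondrial ribosomal proteins under other symbols, tko and bonsai, had an IDR summit within 500 bp. There was also none at 19 mitochondrial aminoacyl-tRNA synthetase and transamidation genes (interval up to 17.6%), 9 translation factors (up to 33.6%) and 12 genes of mitochondrial transcription and DNA maintenance (up to 26.5%). Of 87 nuclear genes of oxidative phosphorylation, 2 (2.3%, interval up to 8.06%) had one, ND-ASHI of complex I (signal 613.9, rank 199) and ATPsynC, a ring subunit of ATP synthase (rank 2138). Both had their own TSS nearest. Of the 93 genes for cytosolic ribosomal proteins, 57 (61.3%) had an IDR summit, and the own TSS was nearest for 55 of those 57, against 2 of 9 for the mitochondrial set. A divergent partner was annotated for 60.2% of the cytosolic set and for 39 of those 57 genes. In single replicates, the strongest candidates lay near 71, 59 and 36 of the 93 cytosolic genes in replicates 1, 2 and 3. They lay near 0, 3 and 2 of the 19 synthetase and transamidation genes and 5, 4 and 3 of the 87 oxidative phosphorylation genes. The shares of all genes were 14.2%, 14.6% and 13%, and no gene of the other mitochondrial lists was near one. Pooled candidates lay near 3 of the 19 (15.8%), 1 of the 9 translation factors (11.1%) and 14 of the 87 (16.1%), against 32.5% of all genes.

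Promoter words were counted on both strands in the 300 bases from 250 before to 50 after the gene start. DRE occurred in 15 of 73 members (20.5%), against 15.8% of all divergent genes and 9.36% of all protein-coding genes. In these 15 the copy closest to the start began between 73 bases before and 23 bases after it. DRE was in the promoters of 2 of 9 members with an IDR summit (mRpL20 and mRpS23) and in 20.3% of those without. The core of Motif 1, GGTCACAC, an element of fly housekeeping promoters, was in 11% of members, against 13.2% of all divergent genes and 7.69% of all genes. The E-box CACGTG was in 6.85% of members, 4.85% of all divergent genes and 4.2% of all genes. In the same order, TATAAA was in 46.6%, 48% and 45.8%, and ATGCGCA, a word of NRF-1 type sites in vertebrates, in 4.11%, 3.43% and 3.19%. GAGAG, the word of GAGA factor, was in 16.4% of members, against 23.5% of all divergent genes and 29.7% of all genes. Among genes with an IDR summit it was in 3 of 9 members (mRpL2, mRpL23 and mRpL33) and 41% of all genes. Of the members without an IDR summit, 14.1% had it. The initiator core TCAGT was in 38.4% of members, 46.4% of all divergent genes and 51.5% of all genes, and CACTGAGA in no member, 0.789% of all divergent genes and 1.05% of all genes. CACTGAGA holds the reverse complement of TCAGT, so each CACTGAGA was also counted as TCAGT, and no other word of the set lies within another.

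**Figure D5:**
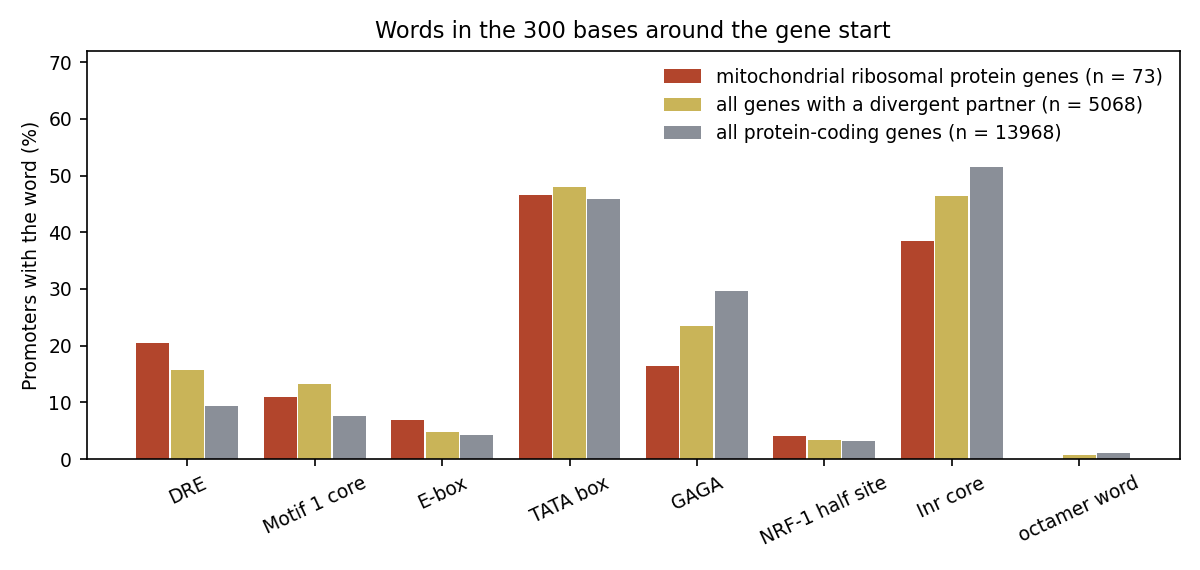
Percent of promoters (vertical axis) that hold each of the 8 words in the 300 bases around the gene start, for the members (red, left), all genes with a divergent partner (yellow) and all protein-coding genes (grey, right). DRE is at 20.5%, 15.8% and 9.36% in that order, and the GAGA word at 16.4%, 23.5% and 29.7%.

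The same words were sought at the summits themselves. In the 101 bases around the 9 members' summits there was no DRE, Motif 1 core, E-box or GAGA word, while GAGAG was in 25.3%, and each of the other 3 words in under 1%, of the 1860 IDR summits near protein-coding starts. TATAAA was in 1 of 9 (mRpL23), against 14.9%, and TCAGT in 2 of 9 (mRpL2 and mRpL33), against 20.4%. The members' windows were rich in A and T, with a median of 71.3% and a range from 60.4% at mRpS21 to 79.2% at mRpL24, against a median of 57.4% over the 1860 windows, which ran from 30.7% to 94.1%. The A and T content was measured, and its part in the signal was not tested.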

How the data were processed

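Per the deposited text notes, the authors compared the reads of each replicate, and of all 3 pooled, with 1 shared control alignment to make relaxed candidate lists, and thresholded these by IDR. The aligner, peak caller, IDR threshold and origin of the control were not given in the sources used here. The deposited signal is the authors' enrichment value per region. It was used only for ranks and ratios within a list. The dm3 lists were not used here. Lists hold no read counts, so depth is unknown.

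Gene symbols, start sites and exons came from Ensembl release 115, and sequence from the Release 6 genome, read with Python 3.11.15, numpy 2.4.6, pandas 2.3.3 and scipy 1.17.1 and plotted with matplotlib 3.10.9. Summits were assigned to every protein-coding gene with a TSS within 500 bp and to the nearest TSS. Regions overlapping by 1 bp were matched between lists, and the replicate candidate of highest signal was taken. Of the pathway lists, mEFG2 found no match. No test between groups was possible with 1 group, and shares are given as descriptions beside those of all genes. All members were named, with full values for those with an IDR summit. For those with pooled candidates only, mainly the pooled signal and the nearest gene were given. The members and lists were chosen with earlier results of these data known. Assignment was tested on simulated summits.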

Additional observations from a re-analysis of the deposited data

How the results depend on the processing

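The number of members with an IDR summit, 9, was 4 at 200 bp (mRpL23, mRpL24, mRpL41 and mRpS10; 9.38% of all genes) and 3 where the peak itself had to overlap a TSS (8.72% of all genes). It was 11 at 1000 bp (16% of all genes), 9 with the most upstream TSS only (10.7%) and 8 with IDR peaks above the median signal (7.47%). It was 8 without replicate 1, 2 or 3 (8.91%, 8.49% and 9.11% of all genes), where mRpS21 was lost each time. mRpS21 was lost even without replicate 3, which had no overlapping candidate there. The share of all genes also fell from 13.1% each time, so these settings were stricter than the IDR list itself. The members' share, 12.3% against 13.1% of all genes in the report, was thus above that of all genes with the most upstream TSS, above the median signal and without any 1 replicate. It was below that of all genes at 200 bp, with overlap of a TSS and at 1000 bp (15.1% against 16%). The number with a pooled candidate, 16, was 6 at 200 bp (23.9% of all genes), 8 with candidates of 50% reciprocal overlap in every replicate (17.6%) and 6 with overlap of a TSS (23.8%), and 12 to 15 without a replicate (23.3% to 24.8%). The mean number near the strongest candidates of single replicates, 10.3, was 5.33 at 200 bp, 15.3 with double the number of candidates and 7.33 with that number divided by 2, and 9.5 to 12 without a replicate. The number with the own TSS nearest stayed at 2 under all alternatives run. Placing summits at their replicate positions was not among these alternatives, so the near ties at mRpL24 and mRpS10 were not tested. With partners at most 500 bp upstream, 53 members had one, against 27.5% of all genes. Counts were held to 1.5 times the reported value, and the mean over replicates to 1 SD. Of 34 alternatives, 26 stayed within these limits and 8 did not, and the cause was not tested. No paired comparison between groups was possible because the 3 replicates form 1 group. Members and all genes were set side by side within each replicate, with no test. Precision is limited by the number of genes and by 3 replicates, and the unknown depth sets what could be detected.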
